A study of Mus musculus with 3 samples.

Results

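The 10 genes described here encode the nonmuscle actins Actb and Actg1, the alpha-tubulins Tuba1a, Tuba1b and Tuba1c, and the beta-tubulins Tubb2a, Tubb2b, Tubb4b, Tubb5 and Tubb6. They were chosen by symbol and are 10 of the 56748 genes of the count table, with 2 actins, 3 alpha-tubulins and 5 beta-tubulins. RNA was sequenced from adult cardiomyocytes (ACMs) of wild-type mice of both sexes, 8 to 10 weeks old, isolated from the ventricles and kept on laminin in serum-free medium with 0.1% BSA, insulin, transferrin and selenium, lipids and 10 mM of the contraction blocker BDM. The cells received vehicle (0.1% BSA), 10 ng/mL mouse OSM or 10 ng/mL human IL-6 for 16 h. Poly-A RNA was pooled before sequencing, so each of the 3 conditions is 1 library without replicates, of 24939980 counts with vehicle, 26362446 with IL-6 and 30773001 with OSM. Every interval below is a 95% interval of counting error only, and every ratio compares libraries, not conditions. No P-value is given.

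Actin monomers assemble into filaments and alpha- and beta-tubulin pair into the dimers of microtubules. Cardiomyocytes hold a vast store of sarcomeric actin, and the nonmuscle forms serve the cell cortex, costameres and intercalated discs. Transcription of many actin genes is driven by serum response factor (SRF), whose cofactors MRTF-A and MRTF-B are held back by free actin monomers. Tubulin mRNAs are subject to autoregulation: when free dimers are plentiful, TTC5 recognizes the first amino acids of a nascent tubulin chain and recruits a complex that degrades the message. OSM and IL-6 belong to the gp130 cytokine family and signal through JAK kinases and STAT3. The comparisons ask how ACMs respond to each cytokine.

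The starts of the coding sequences, 30 bases each, are shown because this stretch encodes the signal for tubulin autoregulation. Capitals mark the first 12 bases, the start codon and the next codons. The sequences are those of the GENCODE M39 canonical transcripts.
Tuba1a: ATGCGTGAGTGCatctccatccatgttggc
Tuba1b: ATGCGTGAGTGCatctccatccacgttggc
Tuba1c: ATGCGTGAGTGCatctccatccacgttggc
Tubb2a: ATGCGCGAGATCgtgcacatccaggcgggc
Tubb2b: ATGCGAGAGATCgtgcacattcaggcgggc
Tubb4b: ATGAGGGAGATCgtgcacctgcaggctggg
Tubb5: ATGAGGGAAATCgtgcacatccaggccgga
Actb: ATGGATGACGATatcgctgcgctggtcgtc
Actg1: ATGGAAGAAGAAatcgccgcactcgtcatt
The first 12 bases were identical in the alpha-tubulins, whereas the beta-tubulins shown differed among themselves in codon use. Over the whole coding sequence, Tuba1a and Tuba1b were 98.3% identical, Tuba1a and Tuba1c 97.1%, and Tuba1b and Tuba1c 97.9%. Tubb2a and Tubb2b were 96.5% identical, whereas the other pairs among the 5 beta-tubulins lay between 80.2% (Tubb5 and Tubb6) and 84.5% (Tubb2a and Tubb5). Actb and Actg1 shared 88.7% of coding positions.

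With OSM the 10 genes together took 0.201% of all counts (Clopper-Pearson interval 0.199 to 0.203%), against 0.0836% with vehicle (0.0825 to 0.0848%) and 0.0821% with IL-6 (0.0810 to 0.0832%). Their summed level per length was 899 FPKM with OSM, 359 FPKM with vehicle and 346 FPKM with IL-6. The levels covered a wide range within each library. In the vehicle library Tubb4b stood first at 145 FPKM, followed by Tubb6 at 42.8, Tuba1b at 41.2 and Tubb5 at 39.0 FPKM. The intervals of Tubb6 and Tuba1b overlapped, as did those of Tuba1b and Tubb5, so that these neighbours could not be ordered. Tuba1c at 27.3 FPKM and Actb at 25.5 FPKM came next, again with overlapping intervals, and then Actg1 at 16.3, Tubb2a at 14.1 and Tuba1a at 7.54 FPKM. Tubb2b, known mainly from the developing nervous system, was last at 0.431 FPKM and 25 counts. In the IL-6 library the same 4 genes had the highest values, and the intervals of Tuba1b and Tubb5 again overlapped. With OSM, Tuba1c at 97.1 FPKM stood above Tuba1b at 86.2 FPKM, and their intervals did not overlap.

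**Figure D1:**
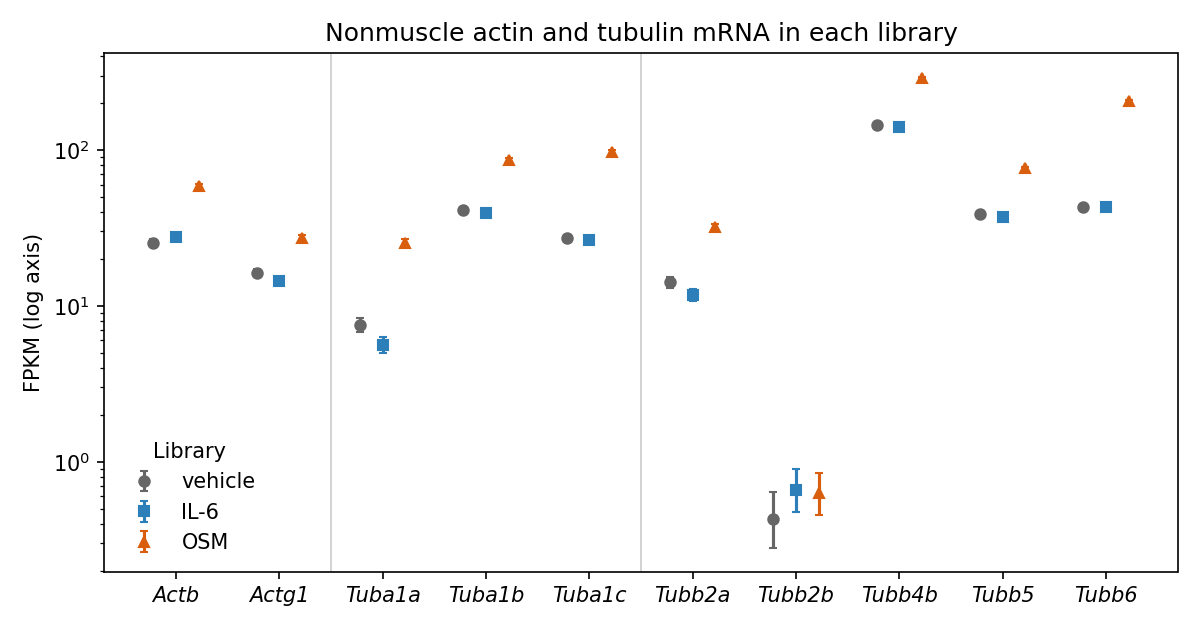
Deposited FPKM of the 10 genes (log axis) in the vehicle (circles), IL-6 (squares) and OSM (triangles) libraries, with 95% Poisson intervals of the counts. The OSM value lies above the other libraries' values for every gene but Tubb2b, which stays below 1 FPKM in all 3 libraries.

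Comparing OSM with vehicle, 5 of the 10 genes rose, meaning that the whole interval of the ratio of TMM-scaled counts lay beyond 2-fold. Of all 15537 genes compared, 575 (3.70%) were called higher by this rule and 849 (5.46%) lower, and 0 of the 10 genes were lower. The called genes were Tubb6, Tuba1c, Tuba1a, Actb and Tubb2a. For 9 of the 10 genes the interval lay above 0 on the log2 scale, and Tubb2b was the exception. How many of all genes passed this looser rule was not counted. Genes of like length had medians from 0.15 to 0.41, so 9 of 10 is not read as particular to these genes. The median log2 ratio of the 10 genes was 1.11, beside 0.00 over all genes compared. In a bulk library, more cells of a type and more RNA per cell cannot be told apart. With total counts in place of TMM factors, Tubb2a loses its call and the other 4 genes keep theirs. With the median of genes of like length subtracted, Actb and Tubb2a lose theirs and 3 genes keep it. Of all genes compared, total counts gave 540 higher and 936 lower, and subtracting the like-length median gave 508 and 711. With 1 pooled library per condition, spread between cultures was not measured. If a biological coefficient of variation of 0.2 per library is assumed, 2 of the 10 genes (Tubb6 and Tuba1c) keep their call, and with 0.4 none (0) does.

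Actb, the beta-actin gene, had 1726 counts (25.5 FPKM) with vehicle, 2006 (27.6 FPKM) with IL-6 and 4702 (58.8 FPKM) with OSM. The OSM library stood apart from the other libraries, and the log2 ratio of OSM to vehicle was 1.20 (1.12 to 1.28), a fold of 2.29. Actg1, which encodes gamma-actin, had 1099, 1041 and 2157 counts in the same order of libraries, or 16.3, 14.5 and 27.2 FPKM. Its log2 ratio of OSM to vehicle was 0.73 (0.62 to 0.83), which does not reach 2-fold. The ratio of Actb to Actg1, which needs no scaling between libraries, was 1.56 in FPKM with vehicle, 1.91 with IL-6 and 2.16 with OSM. The shift between vehicle and OSM was 0.47 on the log2 scale (0.34 to 0.60), and that between vehicle and IL-6 was 0.30 (0.14 to 0.45).

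Among the alpha-tubulins, Tuba1c and Tuba1a rose. Tuba1c had 1579 counts (27.3 FPKM) with vehicle, 1635 (26.4 FPKM) with IL-6 and 6630 (97.1 FPKM) with OSM, a log2 ratio of OSM to vehicle of 1.82 (1.74 to 1.90). Tuba1a, the main alpha-tubulin gene of developing neurons, had 344, 276 and 1369 counts, or 7.54, 5.65 and 25.4 FPKM, and rose by a log2 ratio of 1.75 (1.57 to 1.92). Tuba1b, the most abundant of the 3 with vehicle, had 1952, 1992 and 4829 counts, or 41.2, 39.2 and 86.2 FPKM. The log2 ratio of Tuba1b was 1.06, and as its interval (0.98 to 1.14) reached below 2-fold it was not called. Relative to Tuba1b, Tuba1c was 1.70-fold higher in the OSM library than in the vehicle library (log2 0.76, 0.65 to 0.87) and Tuba1a 1.61-fold higher (log2 0.69, 0.50 to 0.87). Tuba1c and Tuba1a did not differ from each other in this respect beyond counting error (log2 0.08, -0.11 to 0.27). Between vehicle and IL-6 their ratio did shift, by 0.37 (0.12 to 0.62) toward Tuba1c, and from IL-6 to OSM by -0.29 (-0.49 to -0.09).

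Tubb6 rose most among the 10 genes. This beta-tubulin gene, with low expression in most adult tissues, had 2638 counts (42.8 FPKM) with vehicle, 2843 (43.1 FPKM) with IL-6 and 14898 (205 FPKM) with OSM. The log2 ratio of OSM to vehicle was 2.25 (2.19 to 2.31), a fold of 4.76, and it was the only ratio among the 10 genes whose interval lay beyond 4-fold. Tubb2a had 576, 514 and 1532 counts, or 14.1, 11.8 and 31.9 FPKM, with a log2 ratio of 1.16 (1.02 to 1.30). Tubb4b, the leading beta-tubulin in each library, had 7639, 7930 and 18154 counts, or 145, 140 and 291 FPKM. Its log2 ratio of 1.00 (0.96 to 1.04) lay at the 2-fold line. Tubb5 had 3280, 3368 and 7568 counts, or 39.0, 37.4 and 76.2 FPKM, with a log2 ratio of 0.96 (0.90 to 1.02). Tubb4b and Tubb5 kept their proportion, with 3.71 FPKM of Tubb4b per FPKM of Tubb5 with vehicle, 3.75 with IL-6 and 3.82 with OSM. Tubb2b, at 25, 41 and 43 counts, had a log2 ratio of 0.53 (-0.21 to 1.31), and at this depth no difference was detectable.

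The promoters of Tubb4b and Tubb2a are shown for their motifs. Both windows hold the 250 bases before the annotated start, lie on the minus strand of GRCm39 and overlap no annotated exon. That of Tubb4b is at chr2:25114715-25114964 and that of Tubb2a at chr13:34261999-34262248. Capitals mark CCAAT (Tubb4b) and TATAAA (Tubb2a).
Tubb4b promoter: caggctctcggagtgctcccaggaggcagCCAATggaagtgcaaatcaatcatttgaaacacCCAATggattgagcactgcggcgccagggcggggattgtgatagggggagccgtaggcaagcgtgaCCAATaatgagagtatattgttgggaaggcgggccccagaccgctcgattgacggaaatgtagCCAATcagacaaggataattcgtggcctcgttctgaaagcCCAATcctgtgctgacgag
Tubb2a promoter: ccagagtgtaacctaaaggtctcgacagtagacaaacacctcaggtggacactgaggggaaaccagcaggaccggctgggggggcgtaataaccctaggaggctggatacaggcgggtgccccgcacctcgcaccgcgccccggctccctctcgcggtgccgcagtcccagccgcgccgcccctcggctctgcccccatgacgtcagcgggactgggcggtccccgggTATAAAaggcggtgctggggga
Tubb4b had 5 matches to CCAAT, the first of them 221 and the last 19 bases before the start. Of the 10 genes, 7 had at least 1 CCAAT in this window (36.5% of the promoters of 21770 protein-coding genes), 5 had a GGGCGG (36.3%) and 1, Tubb2a, a TATAAA (11.9%). The spacing TTCNNNGAA, the core of a STAT site, was in 0 of the 10 windows and in 7.70% of all promoters. All letters were searched on both strands, and a match is a description, not a site.

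Sums over a family do not depend on how reads are split between its own members, but they do depend on reads lost or given to copies outside it. The 2 actins summed to 2825 counts with vehicle, 3047 with IL-6 and 6859 with OSM, and their log2 ratio of OSM to vehicle was 1.03 (0.97 to 1.10), not beyond 2-fold over the whole interval. The alpha-tubulins rose from 3875 to 12828 counts, a log2 ratio of 1.48 (1.43 to 1.53), and the beta-tubulins from 14158 to 42195 counts, a log2 ratio of 1.33 (1.30 to 1.36). Tubb2a and Tubb2b summed to a log2 ratio of 1.14 (1.01 to 1.28). This ratio was 1.09 with total counts and 0.74 with the like-length median subtracted, and neither lay beyond 2-fold over the whole interval. For the 10 genes together the log2 ratio was 1.32 (1.30 to 1.34), a fold of 2.50. With the like-length median subtracted, the ratio of the 10 genes was 1.04. It was then 1.15 for the alpha-tubulins, 1.06 for the beta-tubulins and 0.81 for the actins, each outside its interval above.

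Within families the composition shifted with OSM. Tubb6 made up 18.6% of beta-tubulin counts with vehicle (Clopper-Pearson interval 18.0 to 19.3%), 19.3% with IL-6 (18.7 to 20.0%) and 35.3% with OSM (34.9 to 35.8%). Per length, its share of beta-tubulin FPKM was 17.8, 18.5 and 33.9%. The FPKM share of Tubb4b was 60.0% with vehicle, 60.2% with IL-6 and 48.2% with OSM, and that of Tubb5 was 16.2, 16.0 and 12.6%. In counts, Tuba1c took 40.7% of the alpha-tubulins with vehicle (39.2 to 42.3%), 41.9% with IL-6 (40.3 to 43.5%) and 51.7% with OSM (50.8 to 52.6%). Tuba1b took 50.4% with vehicle (48.8 to 52.0%), 51.0% with IL-6 and 37.6% with OSM (36.8 to 38.5%). Vehicle and IL-6 shares overlapped in their intervals for Tubb6, Tuba1b and Tuba1c, and the OSM shares lay outside them. For Actb, at 61.1% of actin counts with vehicle (59.3 to 62.9%), the IL-6 share of 65.8% (64.1 to 67.5%) also lay apart, and the OSM share was 68.6% (67.4 to 69.7%). The share of Tuba1a was 8.88% with vehicle (8.00 to 9.82%) and 7.07% with IL-6 (6.29 to 7.92%), again without overlap, and 10.7% with OSM (10.1 to 11.2%). Against Tubb5 in the same libraries, Tubb6 was 2.45-fold higher with OSM than with vehicle (log2 1.29, 1.21 to 1.38).

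**Figure D2:**
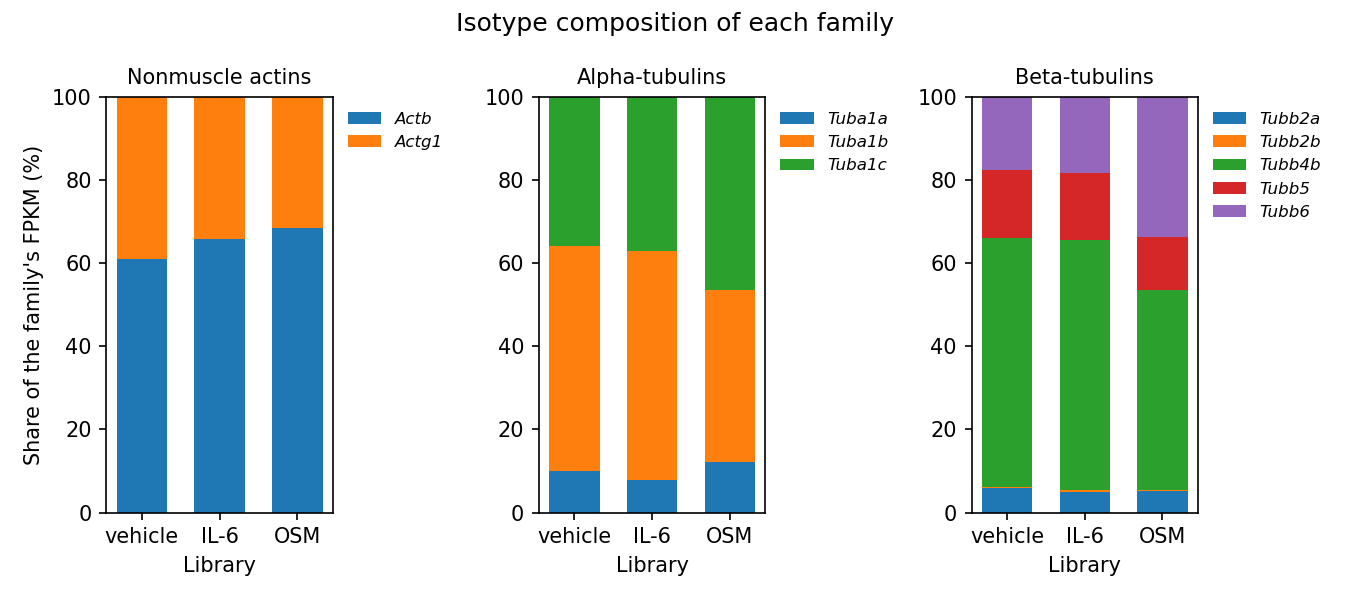
Share of each gene in the summed FPKM of its family (percent, stacked bars) in the vehicle, IL-6 and OSM libraries, for the nonmuscle actins, the alpha-tubulins and the beta-tubulins. Tubb6 goes from 17.8% with vehicle to 33.9% with OSM, and Tuba1c from 35.9% to 46.5%.

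Comparing IL-6 with vehicle, 0 of the 10 genes were called in either direction. Of 15472 genes compared, 274 (1.77%) were higher and 269 (1.74%) lower by the same rule. Of the 10928 genes whose counts summed to 100 or more in the pair, which include all of the 10 but Tubb2b, 12 were higher and 7 lower. The log2 ratios lay between -0.42 (Tuba1a) and 0.61 (Tubb2b). The interval held 0 for 5 genes, lay above it for 1, Actb at 0.12 (0.02 to 0.21), and below it for 4. How many of all genes had intervals clear of 0 was not counted. As the intervals cover counting error only, these small shifts are not read as a response to IL-6. Tuba1a was the furthest below at -0.42 (-0.65 to -0.18), followed by Tubb2a at -0.26 (-0.44 to -0.09), Actg1 at -0.18 (-0.30 to -0.05) and Tubb4b at -0.05. The summed log2 ratio of the 10 genes was -0.05 (-0.07 to -0.02). Tubb6, which rose most with OSM, had a log2 ratio of 0.01 (-0.07 to 0.09) here.

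Comparing OSM with IL-6, 7 of the 10 genes were higher with OSM, against 4.24% of 15544 genes compared, and 0 were lower, against 5.44%. This comparison shares the OSM library with that of OSM against vehicle, so the values are given side by side. The log2 ratio was 2.25 (2.19 to 2.31) for Tubb6, as against vehicle. It was 2.17 (1.98 to 2.36) for Tuba1a, beside 1.75 against vehicle, and 1.88 (1.80 to 1.96) for Tuba1c, beside 1.82. Tubb2a had 1.43 (1.29 to 1.58) beside 1.16, and Actb 1.09 (1.01 to 1.16) beside 1.20. Tuba1b at 1.14 (1.06 to 1.21) and Tubb4b at 1.05 (1.01 to 1.09) were called here and not against vehicle, where their ratios were 1.06 and 1.00. Tubb5 at 1.03 (0.97 to 1.08) and Actg1 at 0.91 (0.80 to 1.02) were not called. Tubb2b had -0.07 (-0.73 to 0.58). With total counts in place of TMM factors, Actb, Tuba1b and Tubb4b lose the call in this comparison, and 4 of the 10 genes keep it. With the median of genes of like length subtracted 3 keep it (Tuba1a, Tuba1c and Tubb6), with an assumed variation of 0.2 the same 3, and with 0.4 none (0). Of all genes compared, total counts gave 544 higher and 979 lower, and subtracting the like-length median gave 533 and 747.

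**Figure D3:**
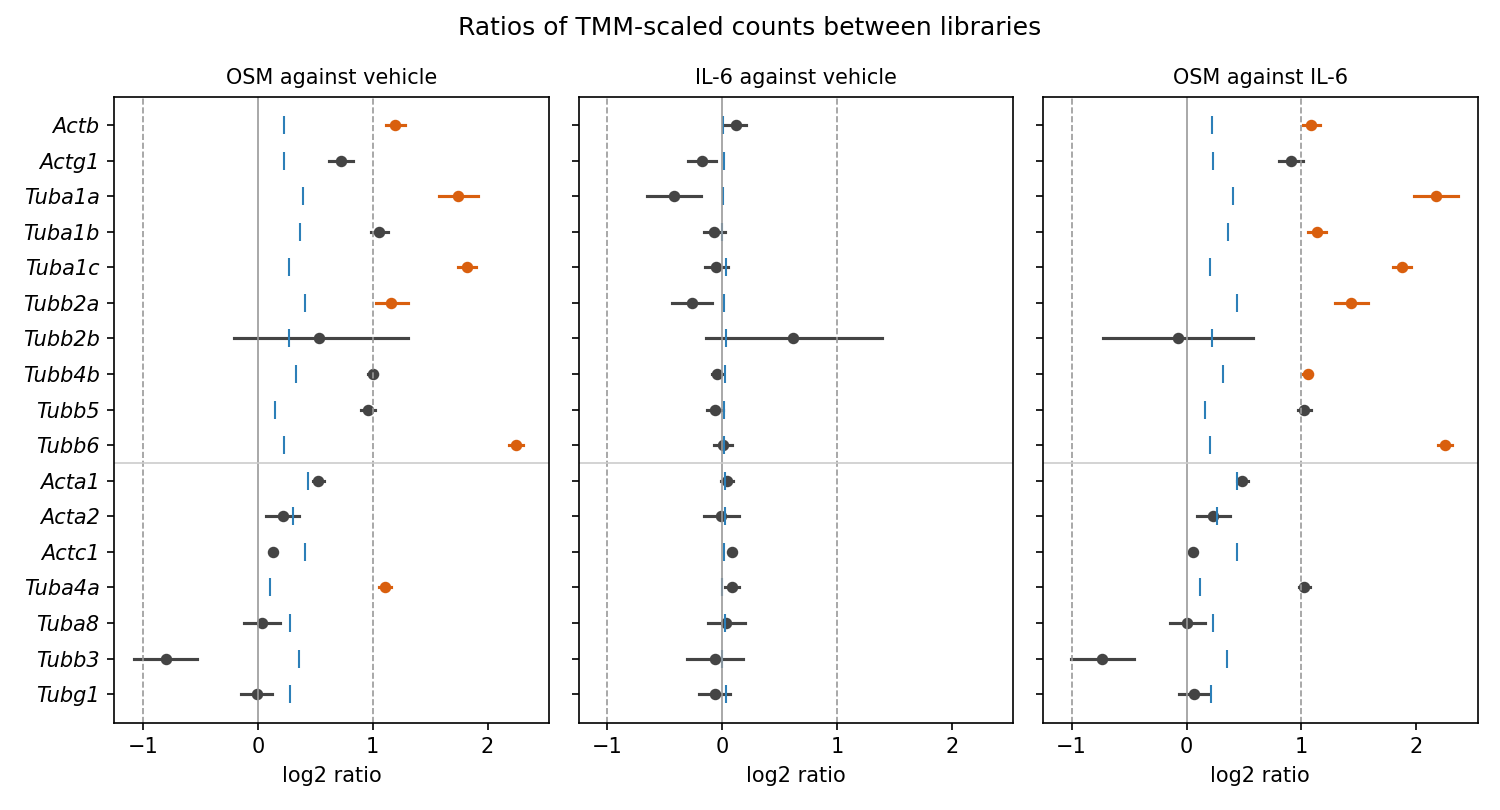
Log2 ratios of TMM-scaled counts for the 10 genes (above the line) and for muscle actins and other tubulins (below it), in 3 pairs of libraries. Bars are 95% counting intervals, orange points were called higher, dashed lines mark 2-fold, and blue ticks give the median of 500 protein-coding genes of like length. With OSM, Tubb6 lies at 2.25 against vehicle, and no ratio of IL-6 to vehicle is called.

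The muscle actins set the scale for the nonmuscle forms. Actc1, the cardiac alpha-actin gene, stood at 3184 FPKM with vehicle, 3385 with IL-6 and 3517 with OSM, with a log2 ratio of OSM to vehicle of 0.14 (0.13 to 0.15). Acta1, the skeletal alpha-actin gene, had 144, 148 and 208 FPKM (log2 0.53, 0.48 to 0.57), and Acta2, the smooth muscle alpha-actin gene, 12.2, 12.1 and 14.3 FPKM (log2 0.22, 0.07 to 0.36). Actg2 had 0, 0 and 1 count and was not compared. Of the 3 muscle actins compared, 0 were called in any pair. Actb and Actg1 together made up 1.24% of the FPKM of all 6 actin genes with vehicle, 1.17% with IL-6 and 2.25% with OSM. Relative to Actc1, Actb was 2.09-fold higher in the OSM library than in the vehicle library (log2 1.06, 0.98 to 1.14).

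Of the other 12 tubulin genes, 7 were compared and 1 was called higher with OSM. This was Tuba4a, an alpha-tubulin gene of adult tissues outside the Tuba1 cluster, at 46.7 FPKM with vehicle, 49.6 with IL-6 and 101 with OSM (log2 1.11, 1.06 to 1.16). The call of Tuba4a was lost with the like-length median subtracted (1.00), and it was not called against IL-6 (log2 1.03, 0.98 to 1.07), where 0 of these genes were. Tuba8, another alpha-tubulin gene, had 10.7, 11.0 and 11.0 FPKM (log2 0.03, -0.12 to 0.19). Tubb3, the neuronal beta-tubulin gene, had 5.78, 5.53 and 3.33 FPKM, with a log2 ratio of -0.80 (-1.08 to -0.53). Tubg1, which encodes the gamma-tubulin that nucleates microtubules, had 14.9, 14.2 and 14.8 FPKM (log2 -0.01, -0.14 to 0.12), and Tubg2 2.21, 1.70 and 1.68 FPKM (log2 -0.40, -0.83 to 0.03). The delta-tubulin gene Tubd1 had a log2 ratio of 0.07 (-0.18 to 0.32), and the epsilon-tubulin gene Tube1, at 24, 13 and 38 counts, 0.42 (-0.36 to 1.22). The ratios of these genes thus ran from -0.80 to 1.11, beside a range from 0.53 to 2.25 in the 10 genes.

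The counts of called genes in the lists that follow stand beside 3.70% higher and 5.46% lower among all genes compared for OSM against vehicle, and no list was tested. Of 21 compared genes of actin monomer binding and turnover, 4 were higher with OSM and 0 lower, with a median log2 ratio of 0.19 beside 0.17 for genes of like length. Tmsb4x, whose product thymosin beta-4 sequesters monomers, had 4.38 FPKM with vehicle, 4.90 with IL-6 and 13.7 with OSM (log2 1.64, 1.38 to 1.90). Its relative Tmsb10 had 3.62, 2.98 and 9.08 FPKM (log2 1.32, 1.01 to 1.63), and the filament-severing scinderin gene Scin 0.461, 0.455 and 1.38 FPKM (log2 1.58, 1.03 to 2.16). With the like-length median subtracted the ratios were 1.18 (Tmsb4x), 0.83 (Tmsb10) and 1.38 (Scin), and all 4 calls of this list were lost. Among 28 genes of nucleation and branching, 3 were higher and 2 lower, with a median of 0.17 (like length -0.07). Arpc1b, a subunit of the Arp2/3 complex, had 0.533, 0.931 and 3.10 FPKM (log2 2.53, 2.16 to 2.92). Fmnl3, a formin gene, had 0.331, 0.470 and 1.18 FPKM (log2 1.83, 1.34 to 2.35), and the cortactin gene Cttn 23.4, 24.4 and 51.5 FPKM (log2 1.13, 1.06 to 1.19). The ratios of Arpc1b, Fmnl3 and Cttn, and of Tpm3, Myh9 and Clip2 below, are given without the like-length median subtracted. The formin genes that fell were Diaph2, from 353 counts with vehicle to 155 with OSM (log2 -1.43, -1.72 to -1.16, and -0.99 with the like-length median of -0.45 subtracted, which does not reach 2-fold), and Diaph3, from 16 counts to 0, with an upper end of the interval at log2 -2.19.

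Of 31 compared genes of crosslinking and nonmuscle contraction, 2 were higher and 0 lower, with a median of 0.28 (like length -0.05). Tpm3, a tropomyosin gene with nonmuscle isoforms, had 2.46 FPKM with vehicle, 2.56 with IL-6 and 7.59 with OSM (log2 1.62, 1.45 to 1.79). Myh9, the heavy chain of nonmuscle myosin IIA, had 3.42, 2.86 and 7.70 FPKM (log2 1.16, 1.06 to 1.26). Of the 8 compared genes of SRF, its cofactors and ternary partners, 0 were called, with a median of -0.08. The most counted of them, Fhl2, had 194, 195 and 220 FPKM (log2 0.18, 0.14 to 0.22). With IL-6 against vehicle, 0 genes of these lists were called.

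Further lists hold genes that fold, modify or bind tubulin. Of 22 genes of tubulin and actin folding, which include the subunits of the chaperonin CCT, prefoldin and the tubulin cofactors, 0 were called. Their median log2 ratio was 0.44, 19 lay above 0 and 3 below, and the range ran from -0.88 to 0.72. Genes of their lengths had a median of 0.20. The most counted, Cct2, had 115 FPKM with vehicle, 121 with IL-6 and 139 with OSM (log2 0.27, 0.23 to 0.31). None (0) of the 3 genes of tubulin autoregulation was called, and their median was 0.01. Cnot11, a subunit of the deadenylase complex, had 11.6, 8.99 and 11.7 FPKM (log2 0.01, -0.11 to 0.14). Of the 20 tubulin-modifying enzymes compared, 0 were called, with a median of -0.03. The most counted was Agtpbp1, a deglutamylase gene, at 4.39, 4.97 and 3.28 FPKM (log2 -0.43, -0.51 to -0.34). Of 30 microtubule-associated and severing genes, 1 was higher and 5 lower, with a median of -0.10 (like length -0.23). Clip2 went from 14 counts with vehicle and 41 with IL-6 to 84 with OSM (log2 2.34, 1.51 to 3.27). Of the 5 called genes that fell, those with the lowest ratios were Clasp2 (log2 -1.31, -1.47 to -1.15), Map1b (log2 -1.28, -1.40 to -1.16) and Ckap5 (log2 -1.15), which encode proteins of growing microtubule ends and the microtubule lattice. Like Diaph2, these are long genes, and genes of like length had medians of -0.68, -0.70 and -0.41. With these subtracted the 3 calls were lost.

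**Figure D4:**
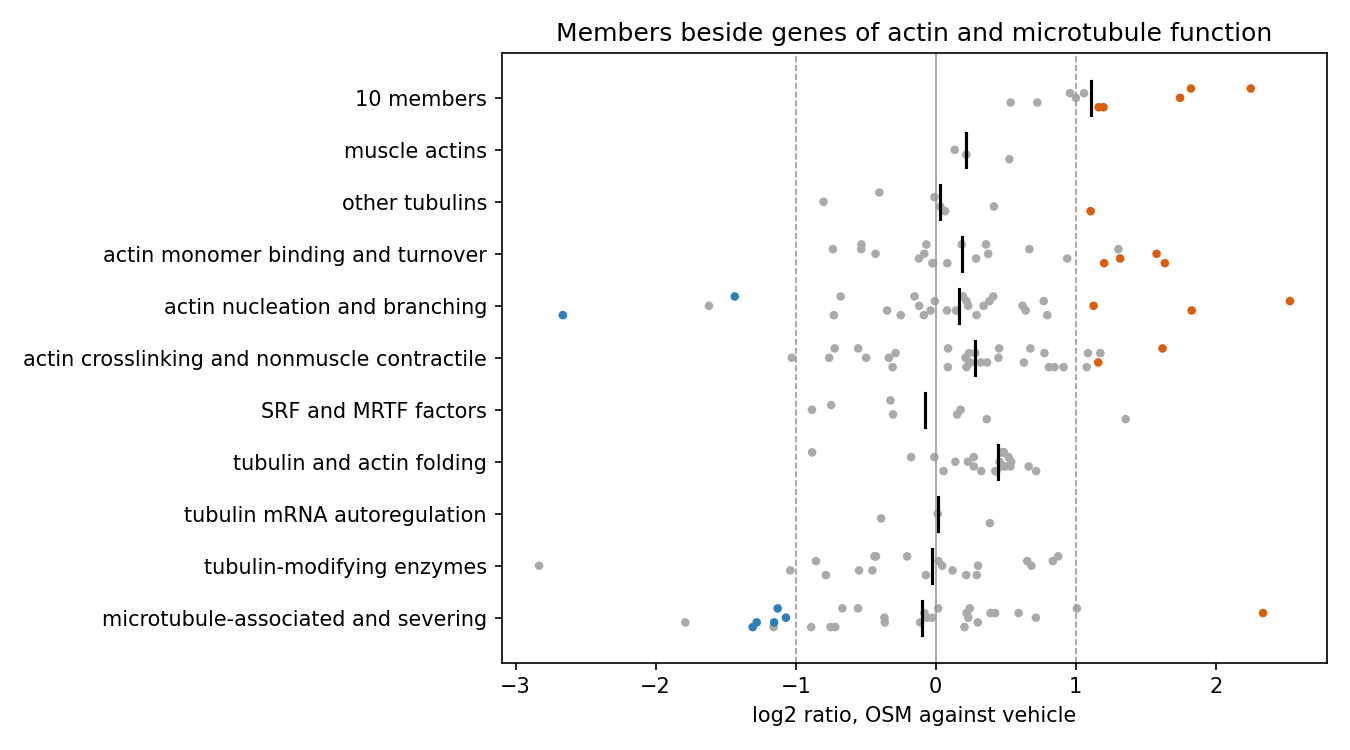
Log2 ratio of OSM to vehicle for the 10 genes and for lists of genes of actin and microtubule function, 1 point per compared gene. Orange points were called higher and blue points lower, black bars are medians, dashed lines mark 2-fold, and the leftmost blue point, Diaph3, is drawn at the floor of 3 counts. The median of the 10 genes is 1.11, and the medians of the other lists lie between -0.10 and 0.44.

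The OSM ratios followed gene length across all protein-coding genes. In the shortest of 10 groups of equal size, up to 1850 bases, the median log2 ratio of OSM to vehicle was 0.48, and in the longest, from 10158 bases, it was -0.59. For IL-6 against vehicle the same medians were 0.02 and -0.03. The 10 genes are short, from 1610 bases (Tubb2a) to 3327 bases (Tubb5), and the 500 protein-coding genes nearest to each in length had medians from 0.15 to 0.41. With that median subtracted, Tubb6 stood at 2.02, Tuba1c at 1.55 and Tuba1a at 1.35, and these 3 kept the call. Actb at 0.97 and Tubb2a at 0.76 lost it. The remaining genes stood at 0.81 (Tubb5), 0.70 (Tuba1b), 0.67 (Tubb4b), 0.50 (Actg1) and 0.26 (Tubb2b). The part of gene length in the ratios was not tested. Shares of counts mapped to mitochondrial genes, another property that differed between libraries, were 17.4% with vehicle, 16.1% with IL-6 and 13.6% with OSM.

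**Figure D5:**
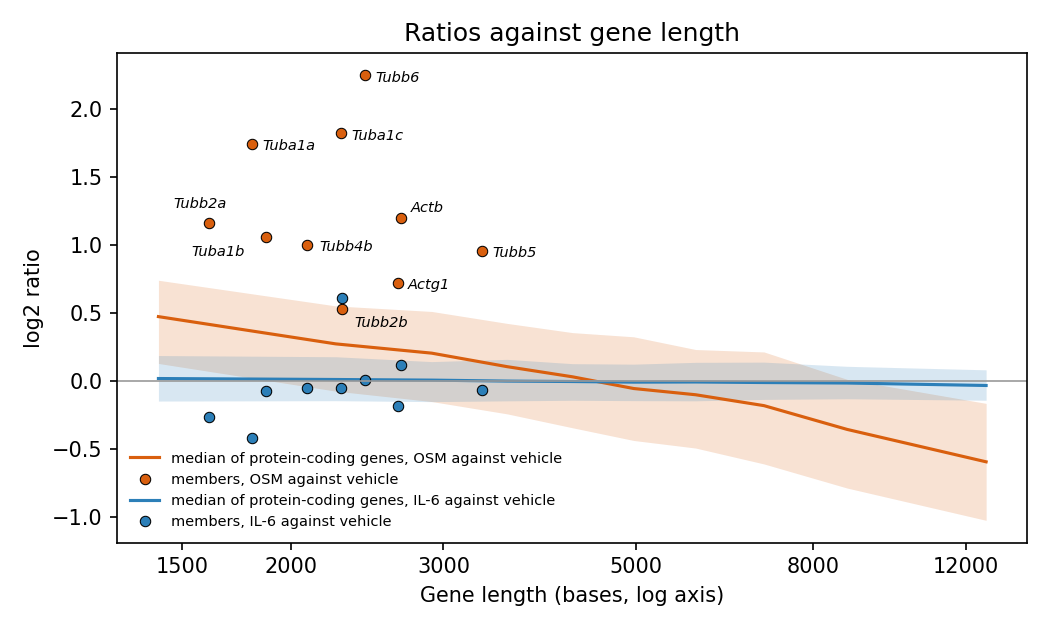
Log2 ratio against gene length (log axis). Lines and bands are the median and interquartile range of protein-coding genes in 10 groups by length, and points are the 10 genes, for OSM against vehicle (orange, labelled) and IL-6 against vehicle (blue). The OSM median runs from 0.48 to -0.59, and 9 of the 10 genes lie above the orange band.

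Near-identical copies limit how far reads can be assigned. Of the windows of 150 bases, the read length, in the canonical transcript, 67.7% of Actg1, 54.6% of Tuba1a, 40.2% of Tuba1c and 28.8% of Tuba1b occur exactly in a transcript of another annotated gene. The share was 18.7% for Tubb2a, 16.8% for Tubb4b and 7.23% for Tubb2b, and 0% for Actb, Tubb5, Tubb6, Tuba4a and Actc1. The canonical transcript of Tuba1b has 3358 bases, against a deposited gene length of 1875. For Tubb2a the lengths are 2326 and 1610 bases, and for Tubb2b 5794 and 2294. Their shares refer to the longer sequence and do not give the share of the counted sequence. In number, the shared windows were 923 for Tuba1b, 905 for Tuba1a and 856 for Tuba1c. Tuba1a, Tuba1b and Tuba1c share windows with each other. Gm49450 overlaps 3715 bases of Tuba1a and 2429 bases of Tuba1b on the same strand, and had 0 counts in each library. Whether this overlap took reads from the counts of Tuba1a and Tuba1b was not tested. The values of the single alpha-tubulins, Actg1, Tubb2a and Tubb2b are therefore uncertain in how reads were split. Much of the sharing is with pseudogenes and other annotated genes outside the families, and Actg1 shares no such window with Actb. How reads with several matches were treated is not given in the sources used here. If they were left out, the levels of Actg1 and the alpha-tubulins, their place in the order, their sums and the ratio of Actb to Actg1 are affected, and this was not tested. Tubb4b-ps1, a processed pseudogene that shares windows with Tubb4b, had 64, 80 and 217 counts. On the opposite strand, Gm41396 at the Tuba1b start had at most 4 counts and Fam166a at Tubb4b at most 1, and whether counting used the strand is not given in the sources used here. Gapdh, the reference gene of the study's qPCR, shares 74.0% of its windows with 53 other genes and stood at 1.41 FPKM with vehicle, 0.938 with IL-6 and 2.89 with OSM (log2 of OSM to vehicle 1.03, 0.75 to 1.32).

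In the coordinates of the files, on GRCm39, the alpha-tubulin genes lie within 107 kb of chromosome 15. Tuba1b is at chr15:98829306-98832446 and Tuba1a at chr15:98847718-98851584, both on the minus strand, and Tuba1c is at chr15:98927772-98935991 on the plus strand. Tubb2a and Tubb2b are neighbours within 56.2 kb of chromosome 13. Tubb6 is at chr18:67523787-67535819 on the plus strand. Each alpha- and beta-tubulin transcript among the 10 genes has 4 exons, and Actb and Actg1 have 6.

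Cardiomyocyte markers were abundant in each library. The 10 markers summed to 11508 FPKM with vehicle, 11743 with IL-6 and 16244 with OSM, led by Mb, the myoglobin gene, at 3385, 3399 and 4484 FPKM. Of these 10, 0 rose with OSM and 1 fell, Ryr2 (log2 -1.53, -1.57 to -1.50), a call lost with the like-length median subtracted (-0.69). Fibroblast markers summed to 0.906, 1.15 and 1.25 FPKM, with Dcn leading at 0.332, 0.303 and 0.751 FPKM, and Col1a1 had 6, 0 and 0 counts. Of the 6 fibroblast markers compared for OSM against vehicle, 2 had ratios above 0 and 4 below, with a median of -0.30. None (0) was called in that pair, and Col1a2 was called lower with OSM than with IL-6. Endothelial markers summed to 9.10, 9.11 and 9.81 FPKM, led by Cdh5 at 2.63, 2.40 and 2.64 FPKM, and 0 of 10 were called. Smooth muscle and pericyte markers summed to 21.9, 24.7 and 10.8 FPKM, most of it from Abcc9 at 19.9, 22.7 and 8.01 FPKM, a channel subunit gene that cardiomyocytes also express. Abcc9 fell with OSM (log2 -1.32, -1.40 to -1.24, and -1.01 with the like-length median subtracted, which ends the call), whereas 5 of the 8 markers compared had ratios above 0, with a median of 0.43 and a maximum of 1.14 (Cspg4, not called). Tagln had 0, 5 and 1 count, and Cnn1, at 8, 0 and 13 counts, was called higher with OSM than with IL-6.

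Macrophage and monocyte markers summed to 13.8 FPKM with vehicle, 14.4 with IL-6 and 39.9 with OSM. Nearly all of it was Cd68, a lysosomal protein gene, at 12.0, 13.2 and 37.8 FPKM (log2 1.65, 1.48 to 1.81), and 1.16 with the like-length median subtracted, which ends the call. Of the 10 markers, 5 (Ptprc, C1qa, C1qb, C1qc and Cd163) had 0 counts in all 3 libraries, and Adgre1 had 8, 0 and 6 counts. The 5 markers compared had a median log2 ratio of OSM to vehicle of 1.01. Lyz2, at 13, 4 and 31 counts, was called higher with OSM than with IL-6 and not against vehicle (log2 1.01, 0.03 to 2.06), and Mrc1, at 2, 14 and 8 counts, had a ratio of 1.75 (-0.57 to 5.03). Lymphocyte markers summed to 4 counts in each library, with Cd3d at 0, 0 and 4 counts. Nerve and glia markers summed to 6.02, 5.75 and 3.50 FPKM, led by Tubb3, and Sox10 and S100b had 0 counts. The part of Cd68-bearing cells in the values of the 10 genes was not tested.

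The genes most like the 10 in pattern were sought among 9430 protein-coding genes, by the distance of their log2 ratios, OSM and IL-6 each against vehicle, from those of the summed counts (1.32 and -0.05). The nearest were Slc35e4 (1.33 and -0.03), Ciao2b (1.30 and -0.07), Tor2a (1.29 and -0.07), Adgrg1 (1.27 and -0.01) and Mvp (1.26 and -0.05), at distances of 0.02 to 0.07. Both ratios share the vehicle library, and the measure covers 3 libraries only. Ciao2b stood at 40.7 FPKM with vehicle, close to Tuba1b at 41.2 FPKM, and at 101 FPKM with OSM, above Tuba1b at 86.2 FPKM. Mvp, the major vault protein gene, stood at 19.3 FPKM with vehicle and 46.2 FPKM with OSM.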

How the data were processed

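Counts per gene and FPKM for the same genes were deposited by the authors, with gene coordinates, lengths and biotypes. Per the labels, the submitters' processing notes list fastp, HISAT2 2.2.1, featureCounts 2.0.6, edgeR 4.0.16 and mm39, whereas the methods of the study name other versions of the last tools. Whether counting used the strand and which annotation was used are not given in the sources used here. The deposited FPKM equal counts divided by gene length and by a constant per library. The IL-6 library is described in the labels only.

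Scaling used TMM factors of edgeR 4.0.16 under R 4.3.3, fitted pair by pair to those genes whose 2 counts summed to 10 or more. A log2 ratio carries the 95% Clopper-Pearson interval of both counts given their sum, and calling needed both ends of that interval to exceed 2-fold in the same direction. A count of 0 was set to a floor of 3 counts per library. Intervals of FPKM are exact Poisson intervals of the counts. Ratios between genes carry a log-normal counting interval. With 1 pooled library per condition no test across replicates was possible. Simulated counts with known ratios served to try out the calls. They held counting error alone, so they say nothing on spread between cultures.

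Sequences and exons came from GENCODE M39 on GRCm39 and were aligned with Biopython 1.88. Members and lists were chosen with earlier results of these data known. Named genes were the 10 members, the compared muscle actins and other tubulins, up to 3 called genes per list and direction for OSM against vehicle (the most counted gene where none was called), the 5 genes nearest in pattern with at least 100 counts on average, Gapdh, and the most abundant gene of each marker list. Outside that rule, and after their values were seen, Actg2, Ryr2, further markers and genes that overlap or copy members were named. Of 22 listed tubulin-modifying enzymes, 21 symbols were matched. Alternatives changed the scaling, count minimum, fold, interval, unit and length correction.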

Additional observations from a re-analysis of the deposited data

How the results depend on the processing

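The calls of the 10 genes and of all genes, the 10 genes' log2 ratios and the family sums were recomputed under 13 planned settings and 1 chosen after seeing the data, TMM factors from genes with at least 1 count. Gene and marker lists, shares, ratios between genes and likeness in pattern were not. The exception is the like-length median, which was also subtracted for some listed genes and markers, as given above. With IL-6 against vehicle 0 of the 10 genes were called under every setting, and 0 were called lower in any pair. Log2 ratios left the main counting interval only under total counts or with the median of like-length genes subtracted, 25 times for single genes and 17 times for sums. Settings of the count minimum, the fold, the point estimate and the assumed variation leave the ratios as they are by construction, so they say nothing on them. No called ratio changed sign. Tubb2b, under 100 counts in each pair, gives no value at a minimum of 100 counts. For the 10 genes, OSM against vehicle gave 4 calls with total counts (without Tubb2a), 7 by the point estimate and with each FPKM setting, 9 beyond 1.5-fold, 1 beyond 4-fold, 2 with an assumed variation of 0.2, 0 with 0.4 and 3 with the like-length median subtracted, in place of 5. OSM against IL-6 gave 4 with total counts, 8 by the point estimate and with each FPKM setting, 9 beyond 1.5-fold, 1 beyond 4-fold, 3 with a variation of 0.2, 0 with 0.4 and 3 with the like-length median subtracted, in place of 7. Counts of all genes, higher and lower, follow for OSM against vehicle, IL-6 against vehicle and OSM against IL-6 in turn. Total counts gave 540 and 936, 286 and 256, and 544 and 979. Subtracting the like-length median gave 508 and 711, 267 and 271, and 533 and 747. A minimum of 100 counts gave 319 and 435, 12 and 7, and 325 and 409. The point estimate beyond 2-fold gave 1559 and 2049, 1040 and 1023, and 1555 and 1986. An interval beyond 1.5-fold gave 1328 and 1868, 457 and 445, and 1362 and 1856, and beyond 4-fold 126 and 130, 34 and 62, and 151 and 124. An assumed variation of 0.2 gave 277 and 318, 123 and 108, and 308 and 326, and one of 0.4 gave 122 and 120, 46 and 40, and 154 and 130. FPKM with a pseudocount of 0.1 gave 1088 and 1324, 586 and 578, and 1080 and 1272, and with a pseudocount of 1 gave 351 and 252, 49 and 47, and 350 and 242. Larger or smaller numbers of calls with the count minimum, the fold, the point estimate and the assumed variation follow from those settings' own construction. In the OSM pairs the balance of higher and lower calls turned under some settings, furthest with a pseudocount of 1. The reason for that turn and the cause of the change with gene length were not tested. No paired analysis was possible because each condition is 1 pooled library.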
